A study of Homo sapiens with 4 samples.

Results

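The AP-1 family genes were 10 genes that encode subunits of the AP-1 transcription factor or close relatives: *FOS*, *FOSB*, *FOSL1*, *FOSL2*, *JUN*, *JUNB*, *JUND*, *BATF3*, *ATF3* and *MAFF*. They were taken by name from 19962 protein-coding genes, and their H3K27ac peaks were those that overlapped the annotated gene body plus 10 kb on either side, with a wider window of 50 kb as a companion. The 10 kb windows held 42 of the 63699 peaks called in control cells and 36 of the 50119 peaks called in *SNHG1*-depletion cells. The 50 kb windows held 119 and 113. H3K27ac, acetylation of lysine 27 on histone H3, marks active promoters and enhancers, and was measured by chromatin immunoprecipitation and sequencing (ChIP-seq) in SK-N-BE(2)C, a *MYCN*-amplified line of neuroblastoma (NB), a childhood tumour of the sympathetic nervous system. The study asked how loss of the long non-coding RNA *SNHG1* changes the chromatin of these cells.

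The control group, sgCtrl, received Cas9 with a non-targeting guide RNA and carries the wildtype label (2 samples). The sgSNHG1 group received Cas9 with guide RNAs against *SNHG1* and is labelled as a knockout of that gene, although the study describes its cells as a depletion (2 samples). By the study's methods the edited cells came from stable clones, so a difference between clones and a difference due to the guide cannot be told apart. The authors combined the aligned reads of the 2 samples of each group before calling peaks. Each group is therefore 1 peak list, the spread between replicates is unknown, and no comparison below has a test. Because the mark was measured in a population of cells, the mark in fewer cells and less of the mark in each cell cannot be told apart. The *SNHG1* gene body overlapped 1 H3K27ac peak of sgCtrl and 0 of sgSNHG1, a measure of the mark at that gene and not of its RNA.

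AP-1 is a dimer of basic leucine zipper proteins. JUN proteins can pair with themselves or with FOS proteins, and the dimers bind the TPA response element (TRE), while ATF3, BATF3 and the small MAF protein MAFF form further dimers with related sites. *FOS*, *FOSB*, *JUN*, *JUNB* and *ATF3* are classical immediate early genes, switched on within minutes by growth factors, depolarisation or stress through serum response elements and cyclic AMP response elements (CRE) in their promoters, and in neurons and neuroblastoma cells they serve as markers of stimulation.

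The promoter elements of the family are shown first, since the start-site peaks described further on are placed against them. Each promoter in RefSeq (GRCh38.p14) was searched on both strands, from 500 bases before to 50 after the start, for the TRE (TGACTCA), the CRE (TGACGTCA), the 8-letter CRE variant TGACATCA and the serum response element (CC, 6 letters of A or T, then GG). The capitals mark these letters in the following stretches, all read 5′ to 3′ on the strand of the gene.
FOS, chr14:75278468-75278567, plus strand, serum response element: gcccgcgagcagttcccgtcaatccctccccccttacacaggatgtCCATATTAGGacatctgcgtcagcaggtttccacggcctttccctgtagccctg
FOSB, chr19:45467651-45467750, plus strand, CRE and serum response element: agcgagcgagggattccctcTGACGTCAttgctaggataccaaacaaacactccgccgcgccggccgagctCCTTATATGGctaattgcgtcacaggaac
JUN, chr1:58784060-58784159, minus strand, CRE variant: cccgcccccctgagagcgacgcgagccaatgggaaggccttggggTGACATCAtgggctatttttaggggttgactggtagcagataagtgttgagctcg
JUND, chr19:18281768-18281867, minus strand, CRE: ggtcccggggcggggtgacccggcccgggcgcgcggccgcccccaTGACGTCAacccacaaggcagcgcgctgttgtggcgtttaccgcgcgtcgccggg
MAFF, chr22:38201928-38201957, plus strand, CRE: cggccgggtcggTGACGTCAccgcatgact
The serum response element of *FOS* began 314 bases before the RefSeq start, and that of *FOSB* 274 bases before it. The *FOSB* CRE began 325 bases, the *JUND* CRE 200 bases, the *MAFF* CRE 54 bases and the *JUN* variant 67 bases before the start. A further TRE began 4 bases after the start of *FOSL2*, and the *ATF3* entries held a variant 123 bases before 1 start and a CRE 497 bases before another. Of the 8 members with a promoter entry, 4 held a CRE, 2 a serum response element, 2 the variant and 1 a TRE. These members had 10 entries, and counted by entry the numbers with a match were the same. Over all 34961 promoter entries the shares with a match were 2.19% for the CRE, 2.57% for the serum response element, 3.51% for the variant and 8.06% for the TRE. With the promoter ending 250 bases before the start, as in the table itself, those shares were 1.85%, 1.30%, 2.61% and 4.92%, and the members with a match were *JUND* and *MAFF* for the CRE, *JUN* and *ATF3* for the variant, *FOSL2* for the TRE and none (0) for the serum response element. The 500-base window and the variant were chosen after the data had been seen. A match is a description of letters and not of a bound site.

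All 10 members had an H3K27ac peak within 1 kb of an annotated start site in both lists, where 64.4% of all protein-coding genes had such a peak in sgCtrl and 63.5% in sgSNHG1. The fold enrichment, the authors' ratio of ChIP signal at a peak's summit to its local background, had a median over the members' start-site peaks of 6.51 in sgCtrl and 6.73 in sgSNHG1, beside 6.33 and 6.80 over all genes with such a peak. *MAFF* had the highest start-site peak of the family in either list, followed by *JUN* and *ATF3*. The lowest was at *FOSL1* in sgCtrl and at *JUNB* in sgSNHG1. The number of fragments behind each summit (the pileup) was recovered from the fold enrichment and p-value of the peak, and ran from 58 at *FOSB* to 367 at *MAFF* in sgCtrl and from 40 at *BATF3* to 333 at *FOSL2* in sgSNHG1. Intervals on a pileup are exact 95% Poisson intervals and cover counting error only. They treat fragments as independent, and because the authors kept all duplicates they may be too narrow. The read depth of each sample is unknown from the lists.

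**Figure D1:**
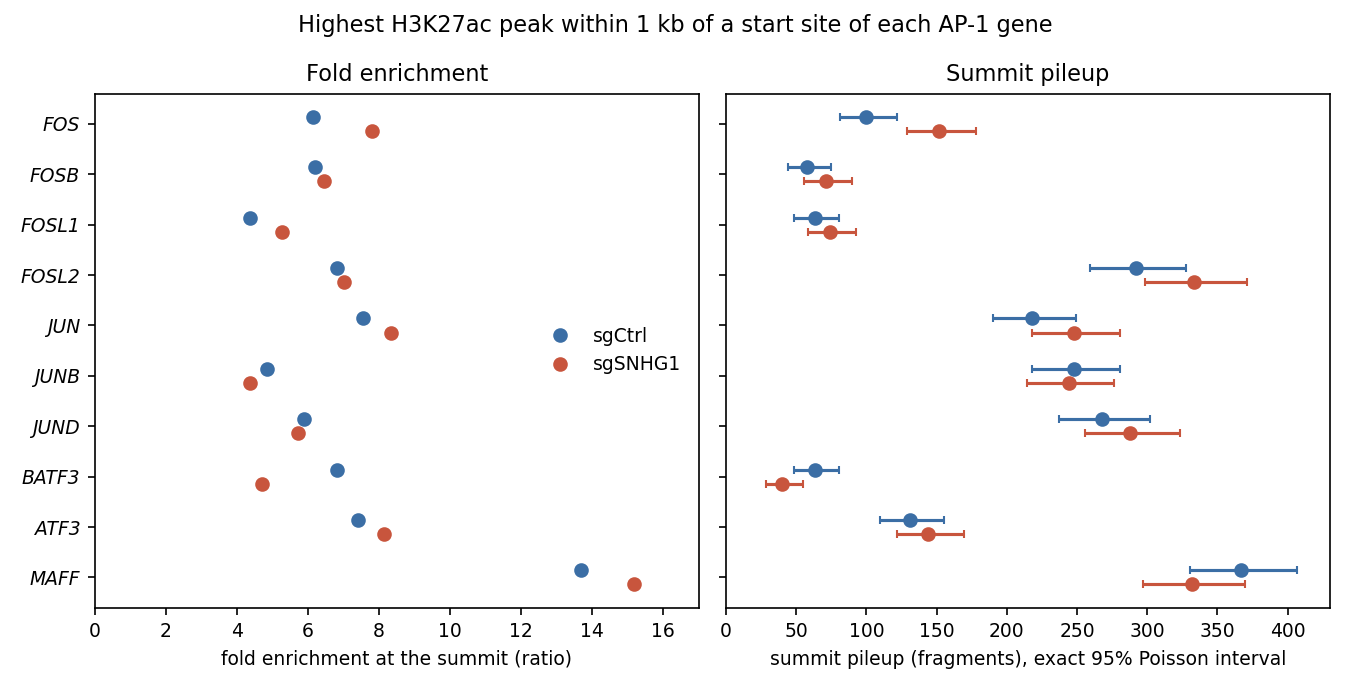
Highest H3K27ac peak within 1 kb of a start site of each AP-1 gene, with fold enrichment (ratio) on the left and summit pileup (fragments, with exact 95% Poisson intervals) on the right, 1 point per pooled list. *MAFF* stands apart at 13.7 and 15.2, *FOS* is higher and *BATF3* lower in sgSNHG1, and the relative fold enrichment of the other members lies between -0.20 and 0.23.

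Changes between the lists were expressed as the log2 ratio of sgSNHG1 to sgCtrl fold enrichment, minus the median of that ratio over the start-site peaks of all genes with one in both lists, and are called relative fold enrichment. On this scale the 10 members had a median of 0.05, with 6 above 0, against quartiles of -0.15 and 0.16 over all genes. None of the members (0 of 10) passed a 1.5-fold difference in either direction by fold enrichment, where 1.82% of 11960 genes were past it upward and 1.42% downward. By pileup, centred in the same way after the data had been seen, 0 members were past 1.5-fold upward and 1, *BATF3*, downward, beside 5.39% and 8.35% of 11834 genes. The counting intervals of 3 members lay to 1 side of 0 on this pileup scale, namely *FOS* above it and *BATF3* and *MAFF* below it. The planned centring was on all pairs of overlapping peaks. With it the intervals of *FOS* (0.43 to 1.18), *FOSL2* (0.16 to 0.62), *JUN* (0.12 to 0.65) and *JUND* (0.058 to 0.55) lay above 0. Those of the other members, *BATF3* and *MAFF* included, held 0. *FOS*, at 0.80, was then past 1.5-fold upward and *BATF3*, at -0.46, was not past it. Of all pairs 8.84% were past it upward and 5.64% downward.

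**Figure D2:**
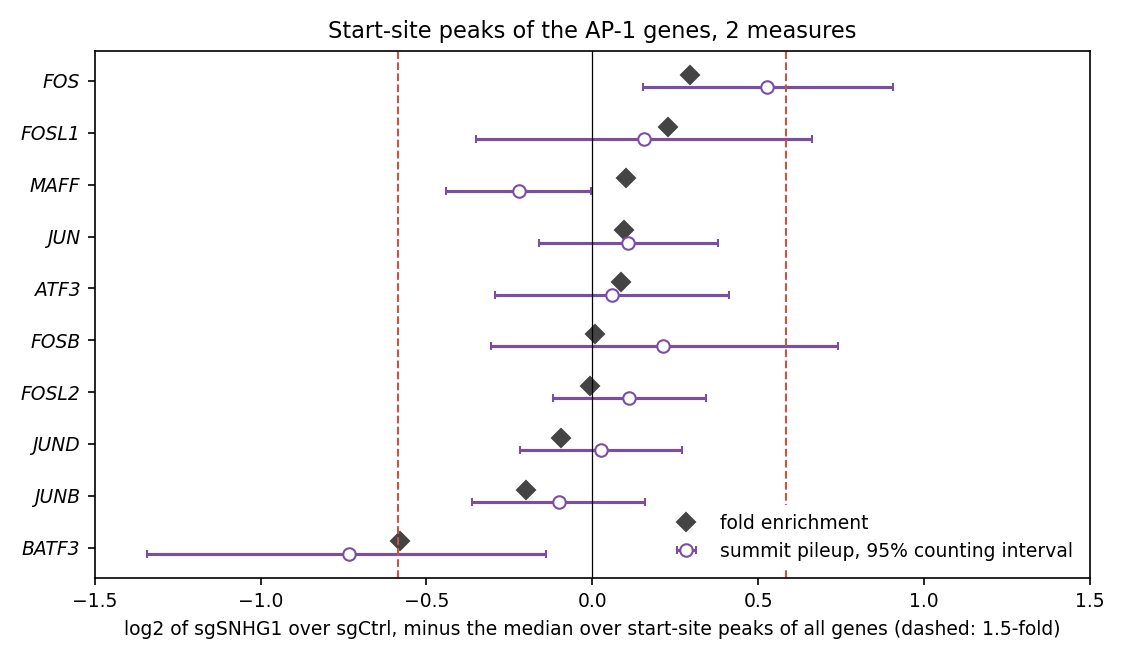
Log2 ratio of sgSNHG1 to sgCtrl at the start-site peak of each AP-1 gene, minus the median over all genes, by fold enrichment (diamonds) and by summit pileup (circles, bars are 95% counting intervals), with dashed lines at 1.5-fold. *FOS* lies highest on both measures, *BATF3* lowest on both at -0.58 and -0.73, and *MAFF* lies above 0 by fold enrichment and below it by pileup.

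Among the genes of the FOS proteins, which are partners of JUN, *FOS* showed the highest relative fold enrichment at its start-site peak, a rank that rests on the 1 kb rule. *FOS* (ENSG00000170345.10, chr14:75278826-75282230, plus strand) carried 2 peaks in each list. The peak in an intron, with the summit 322 bases after the start, had a fold enrichment of 6.15 in sgCtrl and 7.80 in sgSNHG1. Its pileup was 100 (81.4 to 122) in sgCtrl and 152 (129 to 178) in sgSNHG1, with a background pileup of 15.4 and 18.6. The counting intervals, not scaled for depth, did not overlap. The relative fold enrichment was 0.29, at the 88.2 percentile of all genes, and the relative pileup 0.53 (0.15 to 0.91). The other peak, 1.35 kb upstream, had nearly the same fold enrichment in both lists, 7.89 and 7.63, while its called length was 543 bp in sgCtrl and 946 bp in sgSNHG1. Its edge lay 1011 bases from the nearest start in sgCtrl and 545 bases in sgSNHG1, so only in sgSNHG1 was it within 1 kb. With it counted in both lists, the highest *FOS* start-site peak would have 7.89 in sgCtrl and 7.80 in sgSNHG1. The serum response element printed above lay between the intron peak and the upstream peak, 464 bases from the nearer one in sgCtrl and 233 bases in sgSNHG1. No other protein-coding gene starts within 50 kb of *FOS*, and all 7 peaks of that wider window overlapped a peak of the other list. Of the distal ones, the peak 20.1 kb upstream had a fold enrichment of 6.06 in sgCtrl and 7.74 in sgSNHG1, and the peak 14.9 kb downstream 9.34 and 8.05.

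*FOSB* (ENSG00000125740.15, chr19:45467995-45475179, plus strand), which also encodes the long-lived ΔFOSB, had 3 peaks over its 5′ part in sgCtrl and 2 in sgSNHG1. The peak nearest to the start had a fold enrichment of 6.21 in sgCtrl and 6.45 in sgSNHG1, with a pileup of 58 (44.04 to 74.98) and 71 (55.5 to 89.6). In sgSNHG1 this peak was 921 bp long and covered both it and the next sgCtrl peak, which had a fold enrichment of 4.38. The last of the row, 1.62 kb after the start, had 3.56 in sgCtrl and 4.22 in sgSNHG1. The gene lies within the annotated span of *ERCC1*, a DNA repair gene that starts within 10 kb of it. The *FOSB* start-site peak thus differed little between the lists, with a relative fold enrichment of 0.01.

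*FOSL1* encodes FRA1, a FOS protein without the activation domain of FOS, and *FOSL2* encodes its relative FRA2. *FOSL1* (ENSG00000175592.9, chr11:65892049-65900573, minus strand) had a start-site peak with a fold enrichment of 4.37 in sgCtrl and 5.28 in sgSNHG1, a relative value of 0.23 at the 82.3 percentile of genes. Its pileup was 63 (48.4 to 80.6) and 74 (58.1 to 92.9), so the counting intervals, not scaled for depth, overlapped. The relative pileup was 0.15 (-0.35 to 0.66). This peak covered the start site itself and a TRE across it, from 1 base before to 5 bases into the transcript. The highest peak of its 10 kb window was nearest to the start of *CCDC85B*, with 6.80 in sgCtrl and 5.73 in sgSNHG1. A peak in a coding exon, with a fold enrichment of 2.30, was called in sgCtrl only.

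*FOSL2* (ENSG00000075426.12, chr2:28392448-28417317, plus strand) was the longest gene after *ATF3* and had 7 peaks in sgCtrl and 5 in sgSNHG1. The start-site peak had a fold enrichment of 6.81 in sgCtrl and 7.01 in sgSNHG1 at pileups of 292 (259 to 327) and 333 (298 to 371). The other shared peaks had 3.21 and 2.93 at 2.39 kb upstream and 4.57 and 4.76 at 0.586 kb upstream. Inside the gene they had 2.59 and 2.60 at 11.4 kb after the start and 3.61 in both lists at 20.7 kb after it. The relative fold enrichments of these 5 pairs ran from -0.10 to 0.09. The 2 peaks called in sgCtrl only, 9.90 kb upstream and 19.6 kb after the start inside the gene, had fold enrichments of 3.83 and 2.64.

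Of the JUN genes, which encode the partners found in most AP-1 dimers, *JUN* and *JUND* had peaks of similar height in both lists and *JUNB* had its largest difference at a peak beyond its 3′ end. *JUN* (ENSG00000177606.9, chr1:58776845-58784048, minus strand) had 1 peak on each side of its start site in both lists. The peak over its 5′ untranslated region had a fold enrichment of 7.56 in sgCtrl and 8.35 in sgSNHG1 with pileups of 218 (190 to 249) and 248 (218 to 281). The peak 0.553 kb upstream had 5.64 and 5.86. The *JUN* variant printed above lay in the gap between them, 204 bases from the nearer peak in sgCtrl and 193 bases in sgSNHG1.

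Further from *JUN*, the highest distal peak of the family called in only 1 list lay 31.4 kb upstream, at chr1:58815283-58815643. It was called in sgCtrl, with a fold enrichment of 6.54 and a pileup of 54, higher than 86.6% of the peaks of that list, and had no overlapping sgSNHG1 peak. The 150 bases about its summit are shown because they carry this difference. The stretch held none (0) of the 4 motifs searched, and each of its 5 words of 30 bases occurred once in the genome.
JUN, chr1:58815338-58815487, minus strand: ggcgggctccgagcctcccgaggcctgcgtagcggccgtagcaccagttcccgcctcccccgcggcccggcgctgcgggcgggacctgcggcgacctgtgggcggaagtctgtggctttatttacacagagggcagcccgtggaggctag
A second sgCtrl-only peak next to it had a lower fold enrichment, and the nearest sgSNHG1 peak was at 32.5 kb with 3.26.

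*JUNB* (ENSG00000171223.6, chr19:12791486-12793315, plus strand), often an antagonist of JUN, had 9 peaks in its window in sgCtrl and 8 in sgSNHG1, the most of the family. The start-site peak, over its coding exon, had a fold enrichment of 4.84 in sgCtrl and 4.36 in sgSNHG1 with pileups of 248 (218 to 281) and 244 (214 to 277). Its relative value of -0.20 was at the 18.9 percentile of genes. By contrast the peak 2.42 kb after the start, beyond the 3′ end, had 2.57 in sgCtrl and 3.72 in sgSNHG1, with a pileup of 126 (105 to 150.02) and 201 (174 to 231). Centred on all pairs of overlapping peaks, this difference was 0.57, the highest in any 10 kb window and at the 98.2 percentile of pairs. It stayed just under 1.5-fold, with a relative ratio of 1.48. The peak 1.78 kb upstream had 4.26 and 4.64, and held a TRE. The window lies within the annotated span of *HOOK2* and includes the start of *PRDX2*, whose peaks had 2.96 and 4.68 in sgCtrl and 2.59 and 5.50 in sgSNHG1.

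A group of peaks 7.55 to 8.89 kb upstream of *JUNB*, nearer to the start of *HOOK2*, held 3 TREs, the most of any member peak. The stretch with the 3 matches in capitals is as follows.
JUNB, chr19:12783042-12783172, plus strand, TRE: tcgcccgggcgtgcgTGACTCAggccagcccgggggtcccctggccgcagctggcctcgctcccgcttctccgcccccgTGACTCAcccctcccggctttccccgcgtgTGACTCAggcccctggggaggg
The peak over this stretch had a fold enrichment of 3.85 in sgCtrl and 3.84 in sgSNHG1. In sgSNHG1 it was 875 bp long and took in the neighbouring sgCtrl peak, which had 3.21. The peak 7.55 kb upstream had 4.65 in sgCtrl and 3.84 in sgSNHG1.

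*JUND* (ENSG00000130522.6, chr19:18279694-18281622, minus strand), the JUN gene that is expressed in resting cells, had a start-site peak with a fold enrichment of 5.90 in sgCtrl and 5.72 in sgSNHG1 and pileups of 268 (237 to 302) and 288 (256 to 323). The peak 0.786 kb upstream had 2.92 in sgCtrl and 3.40 in sgSNHG1. Its CRE lay between these peaks, 325 bases from the nearer peak in sgCtrl and 216 bases in sgSNHG1. A peak 10.1 kb upstream, with 2.39, was called in sgCtrl only.

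Among the ATF, BATF and MAF members, *BATF3* was lower in the sgSNHG1 list at its start site and upstream of it. *BATF3* (ENSG00000123685.9, chr1:212686417-212699840, minus strand), best known for the development of dendritic cells, had 1 peak in its 10 kb window in each list. The peak covered the start site and had a fold enrichment of 6.83 in sgCtrl and 4.72 in sgSNHG1. Its pileup was 63 (48.4 to 80.6) in sgCtrl and 40 (28.6 to 54.5) in sgSNHG1, the lowest start-site pileup of the family. The counting intervals, not scaled for depth, overlapped. The relative fold enrichment was -0.58, a ratio of 0.669 at the 1.46 percentile of genes, just inside the 1.5-fold limit. The relative pileup was -0.73 (-1.34 to -0.14), at the 4.76 percentile, and -0.46 (-1.07 to 0.14) when centred on all pairs.

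Of the peaks in the 50 kb window nearest to *BATF3*, the one 25.3 kb upstream at the summit had a fold enrichment of 8.56 in sgCtrl and 5.69 in sgSNHG1, with pileups of 91 and 50. Its relative fold enrichment was -0.56 at the 2.53 percentile of pairs, and its relative pileup -0.66 (-1.19 to -0.15). Of 5 words of 30 bases about this summit, 4 had other exact copies in the genome, up to 136, and how far repeated sequence touches these values was not tested. The peaks 32.7, 33.4 and 34.4 kb downstream had relative fold enrichments of 0.0094, -0.07 and -0.44. Over the 42 pairs within 1 Mb of *BATF3* the median relative fold enrichment was -0.10.

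*ATF3* (ENSG00000162772.18, chr1:212565334-212620777, plus strand), a stress-induced repressor, lies next to *BATF3* and shares part of its 50 kb window, where each peak was counted once. *ATF3* was the only member with more peaks in its 10 kb window in sgSNHG1, 7 against 6. The start-site peak of its main transcript had a fold enrichment of 7.41 in sgCtrl and 8.13 in sgSNHG1 with pileups of 131 (109.5 to 155) and 144 (121 to 170). The peak 0.673 kb upstream had 2.91 and 3.65. The highest peak of the locus was 50.0 kb upstream of that start and a few kb from the nearest *ATF3* start, and had 10.9 in sgCtrl and 10.6 in sgSNHG1, higher than 96.6% and 95.2% of the peaks of the lists. Peaks called in 1 list only were of lower height. In the 10 kb window they had 4.43 at 22.6 kb before that start in sgCtrl, and 4.08 at 8.22 kb and 2.79 at 48.7 kb before it in sgSNHG1. Those with 4.43 and 4.08 lay inside the annotated gene. In the wider window an sgCtrl-only peak 82.5 kb before that start, outside the gene, had 5.37.

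*MAFF* (ENSG00000185022.12, chr22:38200767-38216507, plus strand) encodes a small MAF protein without an activation domain, which dimerises with NRF and BACH proteins more than with FOS. Its start-site peak was the highest of the family, with a fold enrichment of 13.7 in sgCtrl and 15.2 in sgSNHG1, above 98.7% and 99.1% of the peaks of the lists. The pileup was 367 (330.4 to 407) and 332 (297 to 369.7), and the background pileup under it 25.9 and 20.9. The relative value was thus 0.10 by fold enrichment and -0.22 (-0.44 to -0.0041) by pileup. By pileup centred on all pairs it was 0.055 (-0.16 to 0.27), so its sign depends on the measure and the centring. The called peak was 1225 bp long in sgCtrl and 578 bp in sgSNHG1. The CRE printed above lay 70 bases from the peak in both lists. The other shared peaks of the window ran from 2.59 to 3.13 in sgCtrl and from 2.34 to 3.20 in sgSNHG1.

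**Figure D3:**
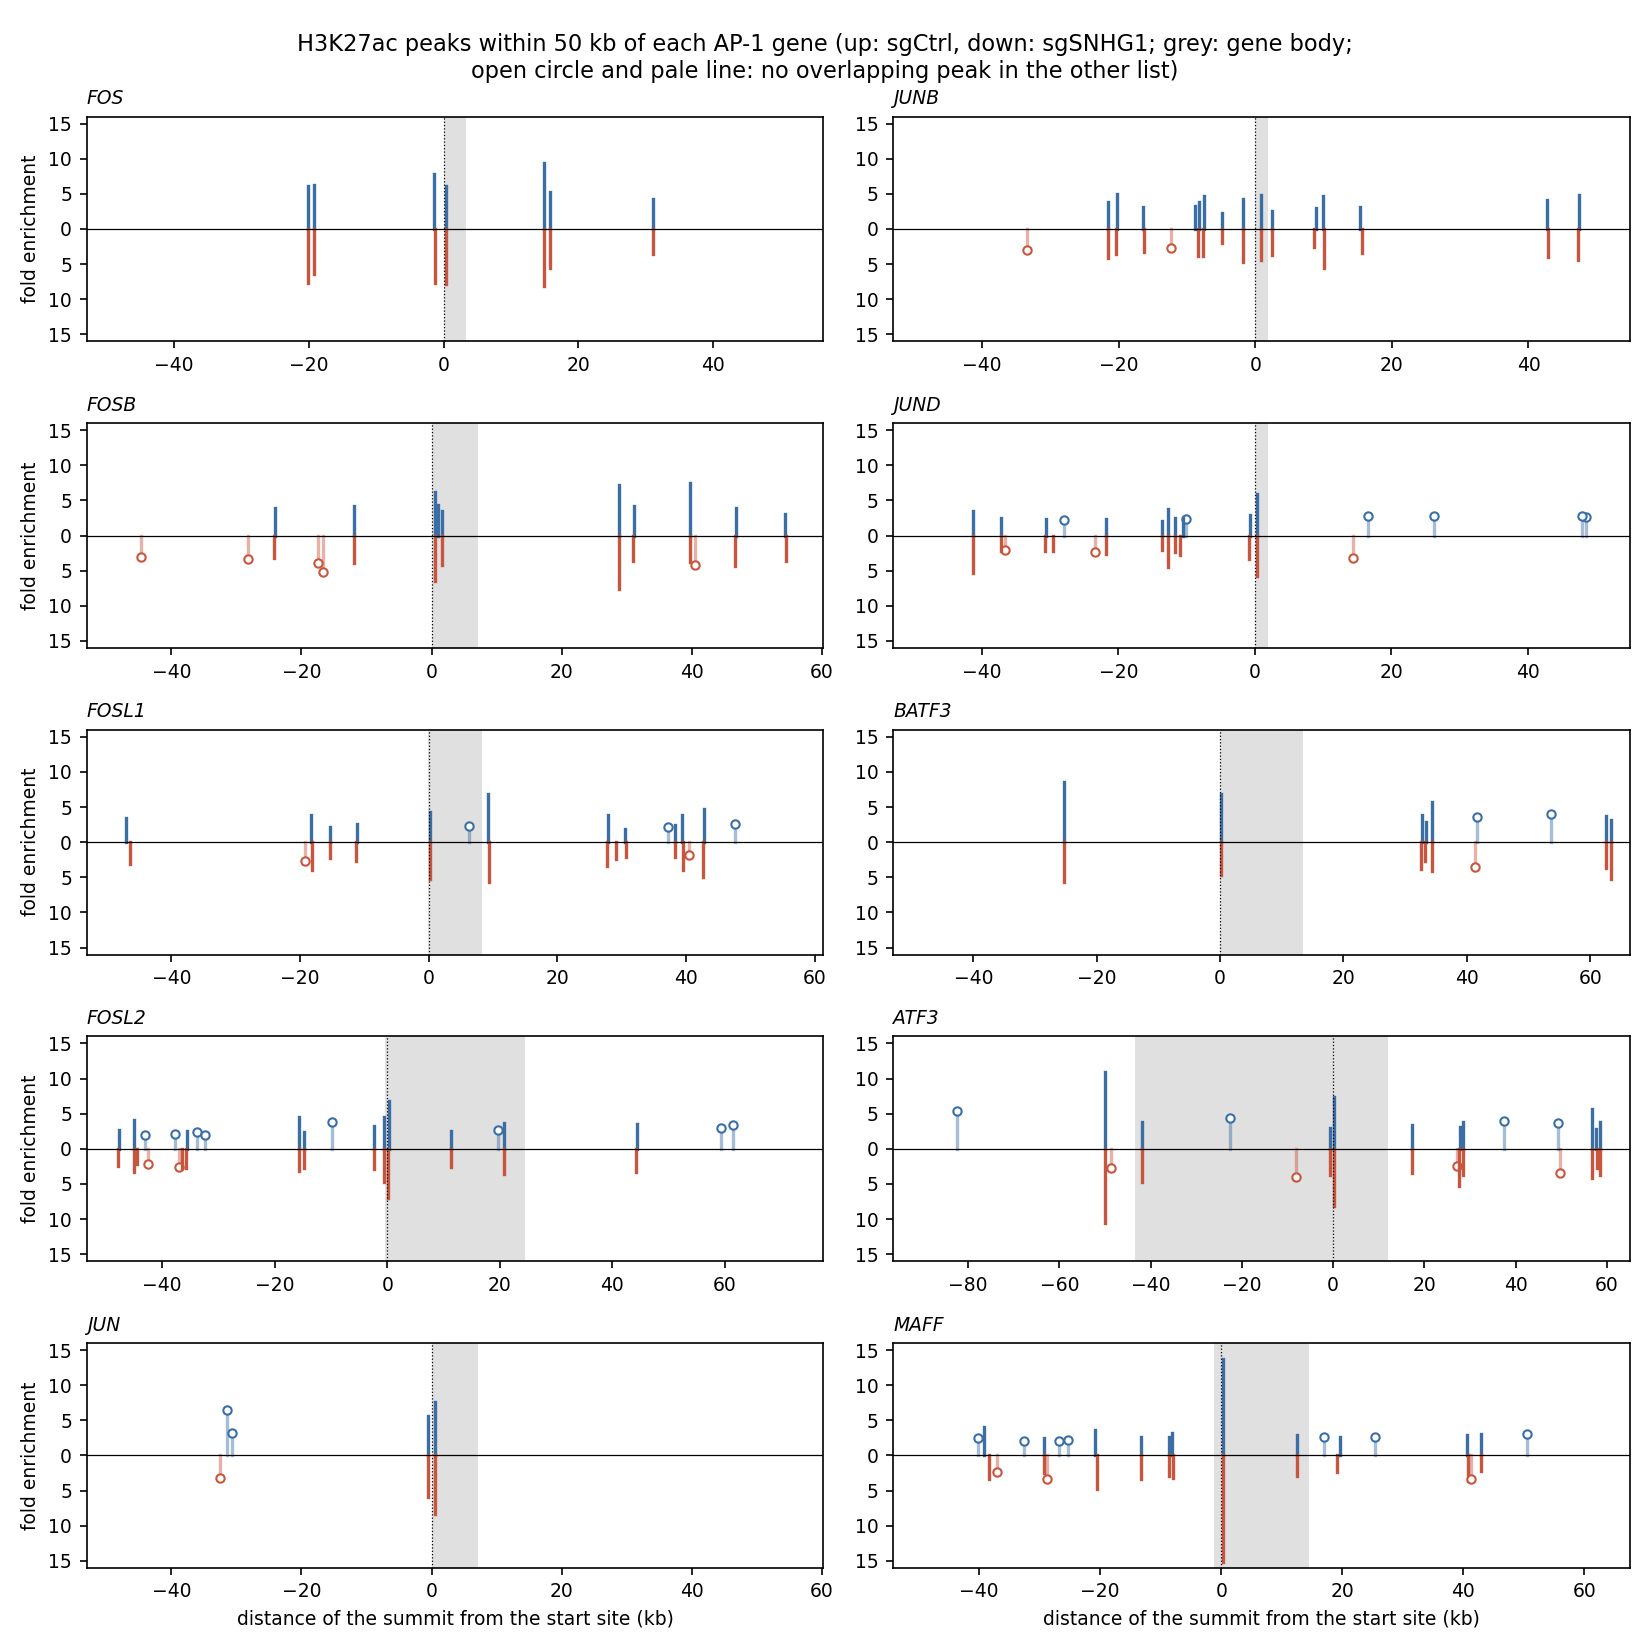
H3K27ac peaks within 50 kb of each AP-1 gene, with fold enrichment upward for sgCtrl and downward for sgSNHG1 against the distance of the summit from the start site (kb) and the gene body in grey, open circles marking peaks without an overlapping peak in the other list. *FOS* has 7 shared peaks and no list-only peak, the sgCtrl-only peak of *JUN* stands at 31.4 kb upstream with 6.54, and *MAFF* has the tallest line in both directions.

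Across the family the 10 kb windows held 42 peaks in sgCtrl and 36 in sgSNHG1, a ratio of 0.857 (0.549 to 1.34, 95% counting interval), beside 0.787 for all peaks of the lists. By member, *FOSB*, *FOSL1*, *FOSL2*, *JUNB*, *JUND* and *MAFF* had fewer peaks in sgSNHG1 (6 members), *FOS*, *JUN* and *BATF3* equal numbers (3) and *ATF3* more (1). Of the 16339 genes with a peak in such a window, 45.4% had fewer peaks in sgSNHG1 and 18.5% more. The length covered by the members' peaks was 26993 bp in control and 24944 bp in *SNHG1*-depletion cells, 0.924 times as much, and over all peaks it was 0.768 times as much. In the 50 kb windows the ratio of peak numbers was 0.9496 (0.734 to 1.23).

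Most peaks near the AP-1 genes were called in both groups. In the 10 kb windows 36 of 42 sgCtrl peaks, 85.7% (72.2 to 93.3, Wilson 95% interval), shared 1 bp or more with a peak of sgSNHG1, against 61.5% of all sgCtrl peaks. Of the sgSNHG1 peaks 34 of 36, 94.4% (81.9 to 98.5), overlapped an sgCtrl peak, against 79.2% of all. Peaks within 3 kb of a start site were more often shared, at 79.3% of such sgCtrl peaks and 85.3% of such sgSNHG1 peaks over the lists, and they made up 26 of the 42 and 25 of the 36 member peaks. Split in this way after the data had been seen, all 26 and all 25 of them were shared. Of the distal member peaks 10 of 16 were shared in sgCtrl, 62.5% (38.6 to 81.5), and 9 of 11 in sgSNHG1, 81.8% (52.3 to 94.9), beside 52.8% and 75.4% of all distal peaks, so that the shares of the lists lay within the intervals. With an overlap of at least 50% of both peaks, 64.3% and 75% of the member peaks were shared, beside 51.2% and 65.1% of all. The members' peaks were also longer, with a median of 508 and 621.5 bp beside 403 and 392 bp over the lists. Their pileups were higher, with medians of 101.5 and 136.5 beside 55 and 52. Length and pileup were not split by distance from a start site, so a trait of start-site peaks was not separated from one of the members. Over the lists, shared peaks within 3 kb of a start site had a median length of 564 bp in sgCtrl and 571 bp in sgSNHG1. In the 50 kb windows 74.8% (66.3 to 81.7) and 80.5% (72.3 to 86.8) of the member peaks were shared.

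In the 10 kb windows 34 pairs of overlapping peaks could be compared. Centred on the median of all 38584 pairs, their relative fold enrichment had a median of 0.08 and ran from -0.50 at *BATF3* to 0.57 at *JUNB*, with 23 above 0. None (0 of 34) passed 1.5-fold, where 1.58% of all pairs did so upward and 2.09% downward. By summit pileup 4 of the 34 pairs were past 1.5-fold upward and 0 downward, beside 8.84% and 5.64% of 38266 pairs. The median log2 pileup ratio over pairs within 3 kb of a start site differed from that over the rest, and with each kind centred on its own median the count was 2 upward and 1 downward, beside 6.58% and 6.07% of all pairs, a setting added after the data had been seen.

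Of the 87 pairs in the 50 kb windows, 2 were past 1.5-fold upward and 1 downward, and 51 were above 0. All 3 were nearest to the start of another gene. They were a peak beside *VASP* in the *FOSB* window, with a fold enrichment of 7.42 in sgCtrl and 3.75 in sgSNHG1 (relative -0.95), a peak beside *LSM4* in the *JUND* window, with 3.54 and 5.37 (0.63), and a peak between *ATF3* and *BATF3*, nearest to *GARIN4*, with 3.18 and 5.31 (0.77). Of the peaks in these windows, 30 were called in sgCtrl only, with a median fold enrichment of 2.62, and 22 in sgSNHG1 only, with 3.02. The medians over all list-only peaks were 3.30 and 3.52. Above the median of their own list stood 5 of the sgCtrl-only peaks, at *JUN*, *ATF3* (2), *FOSL2* and *GARIN4*, and 3 of the sgSNHG1-only peaks, at *ATF3*, *ERCC1* and *VASP*.

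The main start sites of most members lay outside the called peaks. At *FOSB* and *MAFF* no peak was called within 3 kb upstream of the main start in either list. The main start site of 8 of 10 members, all except *FOSL1* and *BATF3*, was not under a peak in either list, although a peak lay within 1 kb. Of all genes with a peak within 1 kb of the main start site, 76.9% in sgCtrl and 73.6% in sgSNHG1 likewise had the start outside the peak. None (0) of the 9 promoter matches, found at the 8 members with a promoter entry, lay under a peak. *FOSL1* and *BATF3*, the members with the main start under a peak, had no entry and were not searched in this way. The TRE across the *FOSL1* start, found in the search about peak summits, lay under the peak in both lists. The gap at *FOS* ran from 1013 bases before to 159 bases after the start in sgCtrl, and from 547 before to 111 after in sgSNHG1.

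In the 500 bases centred on the summit, 12 of 119 peaks in the sgCtrl 50 kb windows held a TRE, 10.1% (5.86 to 16.8), and 12 of 113 in sgSNHG1, 10.6% (6.18 to 17.6). The shares over all peaks were 5.49% and 5.31%. In the 10 kb windows 4 of 42 peaks, 9.52% (3.77 to 22.1), and 5 of 36, 13.9% (6.08 to 28.7), held one, at *FOSL1*, *FOSL2* and *JUNB*. A match in these 500 bases can lie outside the called peak, as several in the 50 kb windows did. The *FOSL2* match lay outside the peak in both lists and was counted in sgSNHG1 only. The summit there was 191 bases after the start, against 269 in sgCtrl. The TRE letters in reversed order, searched as a comparison added after the data had been seen, were found in 6.72% and 4.42% of the member peaks and in 4.49% and 4.27% of all. Many of the peaks with a TRE are the same regions in both lists, and several were nearest to other genes, as were a pair of matches 11.9 kb upstream of *FOSB* near *ERCC1*.

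The genes around AP-1 were examined by lists taken from general knowledge. In these lists and the marker lists, past 1.5-fold refers to fold enrichment unless pileup is named. Of 18 partner and related leucine zipper genes, 15 had a start-site peak in sgCtrl and 13 in sgSNHG1. Over the 13 genes with one in both, the median relative fold enrichment was -0.09, with 0 past 1.5-fold upward and 1 downward. This gene was *CREB5*, a CRE-binding partner of JUN, with a fold enrichment of 11.1 in sgCtrl and 7.42 in sgSNHG1, pileups of 142 and 76 and a relative value of -0.63. *BATF2* and *MAF* had start-site peaks in sgCtrl only, at 3.58 and 3.90.

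Of 22 upstream kinases and SRF or ETS factors, which carry growth factor and stress signals to the promoters above, 21 had a start-site peak in each list and 0 of the 20 with both were past 1.5-fold, with a median of -0.06. The p38 kinase gene *MAPK11* had a start-site peak in sgCtrl only (2.76) and its activator *MAP2K6* in sgSNHG1 only (4.04). Of 24 immediate early genes outside AP-1, 20 had a start-site peak in each list. By fold enrichment the 19 with both ran from -0.27 to 0.52 with a median of 0.06 and 0 past 1.5-fold. By pileup centred on all pairs, *ZFP36L1* (1.28), *EGR4* (0.84), *NR4A2* (0.82), *KLF2* (0.78) and *BTG2* (0.66) were past it upward. The lowest was *DUSP2* at -0.35. The median log2 pileup ratio was -0.20 over all pairs and 0.08 over start-site peaks, so centring on the latter gives lower values. The zinc finger gene *EGR2* had one in sgCtrl only (4.61), and *ZFP36*, whose protein destabilises AU-rich mRNAs, in sgSNHG1 only (2.81).

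Known AP-1 target genes had a start-site peak more often in sgCtrl, with 12 of 22 in sgCtrl and 8 of 22 in sgSNHG1. The 5 with a start-site peak in sgCtrl only were the integrin gene *ITGA5* (4.2), the receptor kinase gene *AXL* (4.07), the cytokine gene *TGFB1* (3.93), the urokinase receptor gene *PLAUR* (3.90) and the growth factor gene *HBEGF* (3.81), and *HMOX1*, which encodes haem oxygenase, had one in sgSNHG1 only (3.49). *HBEGF* and *HMOX1* were named after its values were seen. The pileups of those 5 peaks ran from 22 to 27 fragments, below the median of 55 over the sgCtrl list, and the sgCtrl list is the longer one. The 7 target genes with a peak in both lists had a median relative fold enrichment of 0.03 and 0 past 1.5-fold. Beside these shares, start-site peaks over all genes were at 64.4% and 63.5%.

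Markers of the labelled cell type were present at the level of chromatin. All 12 adrenergic neuroblastoma markers had a start-site peak in sgSNHG1 and 10 in sgCtrl. There *DDC* and *DBH*, enzymes of catecholamine synthesis, had no start-site peak, although 13 and 8 sgCtrl peaks lay in their windows. Over the 10 with one in both lists the median relative fold enrichment was -0.11, with 3 above 0 and 0 past 1.5-fold. The lowest was *HAND2* at -0.57, with a fold enrichment of 4.04 in sgCtrl and 2.82 in sgSNHG1 and pileups of 273 and 123. By pileup centred on all pairs *HAND2* was at -0.95, and *CHGB* (0.81) and *ISL1* (0.67) were past 1.5-fold upward. Of 12 markers of other cell types 5 had one in sgCtrl and 4 in sgSNHG1, with 7 in neither. *EPCAM*, *SNAI2*, *CDH1* and *GFAP* had a start-site peak in both lists and *COL1A1* in sgCtrl only. Those without one in either list included the leukocyte, liver, basal epithelial and endothelial markers *PTPRC*, *CD3E*, *ALB*, *KRT5* and *PECAM1* and the mesenchymal factor gene *PRRX1*. What these peaks contribute to the AP-1 values was not tested.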

How the data were processed

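H3K27ac ChIP-seq of 4 samples, 2 per group, was deposited as 1 peak list per group. Per the study's methods, the authors removed adaptors and low-quality reads (the submitters' processing notes name cutadapt), aligned the rest to GRCh38 with BWA, merged both samples of each group, and ran MACS2 on the paired ends, with all duplicates kept and a p-value threshold of 1e-06. The deposited columns hold a display score, the fold enrichment (a ratio over local background), −log10 p, −log10 q (not used here) and the summit's offset. Aligner and caller versions are not given in the sources used here.

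Peaks were assigned to GENCODE 44 genes plus 10 or 50 kb and paired by an overlap of at least 1 bp, taking the highest fold enrichment. A start-site peak lay within 1 kb of any annotated start, and the main start was that of the canonical transcript. The pileup was solved from the deposited −log10 p and fold enrichment (Poisson, pseudocount 1) and was whole within 0.01 for 99.6% and 99.5% of peaks. Differences were log2 ratios minus the median over all pairs or genes, with 1.5-fold as the limit. Scripts were tested on simulated data. The members and lists were chosen with earlier results of these data known. All members were described. In the lists, genes past 1.5-fold or with a start-site peak in only 1 list were named, up to 4 per list by fold enrichment. Promoters of 8 of 10 members were found in RefSeq, and *FOSL1* and *BATF3* were not matched. Alternatives covered a stricter −log10 p of 10, lists of equal size, 50% overlap, pileup, a 2-fold limit and the window. Python 3.11.15, numpy 2.4.6, pandas 2.3.3, scipy 1.17.1, pysam 0.24.0, samtools 1.23.1 and matplotlib 3.10.9 were used. Values of single samples were not analysed here. A marker gene and a peak sequence are not reported here.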

Additional observations from a re-analysis of the deposited data

How the results depend on the processing

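No paired analysis was possible because each group is 1 list called on combined samples, and leaving out a replicate was not run for the same reason. With any annotated start site under a peak in place of a peak within 1 kb, 6 members had a start-site peak in sgCtrl and 6 in sgSNHG1. By the main start site alone, 2 members had it under a peak in each list. With an overlap of at least 50% of both peaks, 64.3% of the sgCtrl and 75% of the sgSNHG1 member peaks were shared (51.2% and 65.1% of all peaks), and in the 50 kb windows 80.5% of the sgSNHG1 peaks were. By summit pileup the median relative value of the member pairs was 0.29 and 4 pairs were past 1.5-fold upward. In the 50 kb windows 2 pairs were past it upward and 1 downward. With the pileup centred within start-site and distal pairs, chosen after seeing the data, 2 were past it upward and 1 downward. The cause of these shifts was not tested. The percentile of each member's highest peak within its list had a median change of -1.40 points from sgCtrl to sgSNHG1 with 3 of 10 members higher, but with lists of equal size the median change was 1.02 with 7 of 10 higher, so its direction depends on the list size. Of the recomputed values that answer a comparison, 35 stayed within their limits and the 12 above did not. Of those for the start-site peaks of single members, all by pileup, 14 stayed within their limits and 6 did not. Depth limits the smaller peaks, such as the start-site peak of *BATF3* with 63 and 40 fragments, and the spread between replicates is unknown.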

Other observations

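Over the whole lists, the AP-1 windows included, distal peaks called in 1 list only held a TRE more often than distal peaks shared by both lists. In the sgSNHG1 list the shares were 7.46% of list-only and 5.85% of shared distal peaks, and in the sgCtrl list 6.63% and 5.75%. The TRE letters in reversed order gave 5.81% and 4.78% in sgSNHG1 and 5.52% and 4.71% in sgCtrl, differences in the same direction. The sgCtrl list-only distal peaks had a median G and C share of 58.8%, beside 61.8% for the shared ones. In sgSNHG1 these shares were 55.2% and 61.8%. At start-site peaks of sgCtrl the TRE shares were 5.63% of list-only and 3.71% of shared peaks. The reversed letters there gave 4.52% and 2.93%, again a difference in the same direction.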
